A study of Homo sapiens with 4 samples.

Results

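S-phase and G2/M cells were compared within untreated (UT) cultures of the human osteosarcoma cell line U-2 OS, an established line, at the level of single-cell transcriptomes. A cell was placed by a pair of scores, each the sum of 10 transcripts per 10000 counts. The S score summed MCM2, MCM4, MCM5, MCM6, PCNA, TYMS, RRM2, CDC6, GINS2 and UHRF1, and the M score summed CDK1, CCNB1, TOP2A, CENPF, MKI67, TPX2, UBE2C, PLK1, AURKA and KIF11. Within each library, S cells had an S score in the top 30% and an M score outside its own top 30%, and G2/M cells had the reverse. The 2 UT libraries held 76 and 80 S cells and 76 and 80 G2/M cells, together 312 of 725 UT cells and of 1220 cells in the series. A further 31 and 30 cells had both scores in the top 30%, and 175 and 177 had neither; these are called both cells and neither cells.

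Each treatment had 2 libraries, 1 per experiment. UT cells were left untreated, and the IR libraries came from the same line after 4 Gy of ionizing radiation, sorted 48 h later according to the series design and the study's methods, while the treatment protocol in the labels gives 24 h. All groups are 1 cancer line grown in serum, so no other genetic background is represented. Single cells were sorted into plate wells for SORT-seq, in which a barcoded primer captures the 3′ end of polyadenylated RNA before the wells of a plate are pooled. The UT libraries held 5867961 and 6810080 gene counts. The libraries used a common set of well barcodes, of which 350 occurred in both UT libraries and 161 in all 4, so a barcode names a well and not a cell of another library. The cultures were not arrested, and cycle position was read from transcripts alone.

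The cell cycle runs through alternating programmes of transcription. Towards S phase, cyclin E with CDK2 releases E2F factors from the retinoblastoma protein, and E2F targets supply origin licensing, deoxynucleotides, DNA polymerases and repair. Later the MuvB complex with B-MYB and FOXM1 drives genes for spindle, kinetochore and cytokinesis, many of which carry a cell cycle homology region (CHR, the letters TTTGAA) and CCAAT boxes near their start, and the protein products of many are destroyed after mitosis by the anaphase-promoting complex.

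The cells were chosen by the measured counts of the 20 scoring genes, so values of these genes are a description. The last S cell admitted had an S score of 25.1 in UT replicate 1 and 27.4 in UT replicate 2, and the first cell below had 24.9 and 27.4. For the M score the last admitted cell had 30.9 and 29.9, and the first below had 30.9 and 29.8, so cells on both sides of each threshold were nearly alike. Among the scoring genes, PLK1, a mitotic kinase, had 62.9 and 57.5 CPM in S cells against 467 and 379 CPM in G2/M cells. The widest ratio on the S side was that of the helicase subunit MCM6, with 139 and 221 CPM in S cells against 43.2 and 80.8 CPM in G2/M cells. TYMS, thymidylate synthase, was among the least separated of the S score, with 1042 and 1059 CPM in S cells and 690 and 805 CPM in G2/M cells. These 20 genes took no part in any test. The other genes were not used to select cells but were measured in the same cells, so genes that vary along the cycle with the scoring genes differ through the choice of cells.

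Markers that the scores did not use went in the direction of the labels. All 6 S markers (CCNE2, CDC45, MCM3, TK1, E2F1 and CLSPN) were called higher in S cells, and all 6 G2/M markers (CCNB2, CDC20, BUB1, HMMR, NUSAP1 and CCNA2) were called higher in G2/M cells. Over all genes tested, 3.12% were called higher in S cells and 3.68% higher in G2/M cells. Without the library block described below, the calls of CDC45, TK1, CLSPN and CCNA2 were lost (edgeR adjusted p = 0.166, 0.868, 0.316 and 0.0867). Cells with both scores high, left out of the comparison, had more HIST1H4C than S cells (677 and 595 CPM against 523 and 491 CPM). They had less CCNE2 than S cells (20.1 and 17.8 CPM against 37.0 and 57.1 CPM). Whether S cells stood in late G1 or in S phase was not tested. Markers of other cell types were near 0. The 16 such genes summed to 31.5 and 51.6 CPM in S cells and 20.1 and 41.1 CPM in G2/M cells (before TMM scaling), and ALB, INS and HBB had no count in any UT class. EPCAM, an epithelial adhesion gene, was called at 22 and 19.6 CPM in S cells against 9.19 and 11.1 CPM in G2/M cells (adjusted p = 0.0458), a call that held in only 4 of 13 alternatives and was lost without UT replicate 1 (adjusted p = 0.596), without UT replicate 2 (0.367), by DESeq2 (0.629) and in thinned cells (0.74). Of 13 osteoblast lineage genes, 6 were abundant enough to test and none was called. COL1A1, a bone collagen chain, reached 2229 and 1517 CPM in S cells and 2408 and 1438 CPM in G2/M cells, and 4 of the 13 had no count in any UT class.

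Counts were summed over the cells of each class and library and compared with the library as a block; CPM are scaled to the sum's total by TMM, so they are shares of RNA and not amounts per cell. With this block, each p-value reflects how far differences among the classes varied between these 2 UT libraries and no others, whatever that variation comes from. The spread of each gene was estimated partly from that of all genes, since 3 residual degrees of freedom were left. The depth of S and G2/M cells was similar. The median S cell held 16556 and 20259 counts and the median G2/M cell 16430 and 18224, against 14986 and 16014 in neither cells. Median genes detected were 5403 and 6207 in S cells and 5454 and 5881 in G2/M cells, and 3661 and 3737 against 3697 and 3703 after each cell was thinned to 8000 UMIs. Gene counts per spike-in count were 327 and 86.4 in S cells and 319 and 89.3 in G2/M cells. Mitochondrial transcripts took 4.27% and 3.86% of counts in S cells and 4.26% and 4.22% in G2/M cells. For these measures 2 libraries against 2 cannot go below an exact permutation p of 0.33, so no test was made.

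Of 11776 genes tested, 368 were higher in S cells (3.12%) and 433 were higher in G2/M cells (3.68%) at an edgeR adjusted p under 0.05, and 2280 had an unadjusted p under 0.05. Each of the 801 moved the same way in both libraries, which largely follows from their being called on these libraries. List counts given below stand against these shares of all genes, 3.12% for S and 3.68% for G2/M. Over 2-fold differences were seen for 104 of the genes higher in S and 128 of those higher in G2/M. The counts depended on the fit: without the library block 25 and 76 genes were called, DESeq2 called 77 and 135, and thinned cells gave 161 and 215. Without UT replicate 1, 66 and 147 were called, and without UT replicate 2, 69 and 120.

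**Figure D1:**
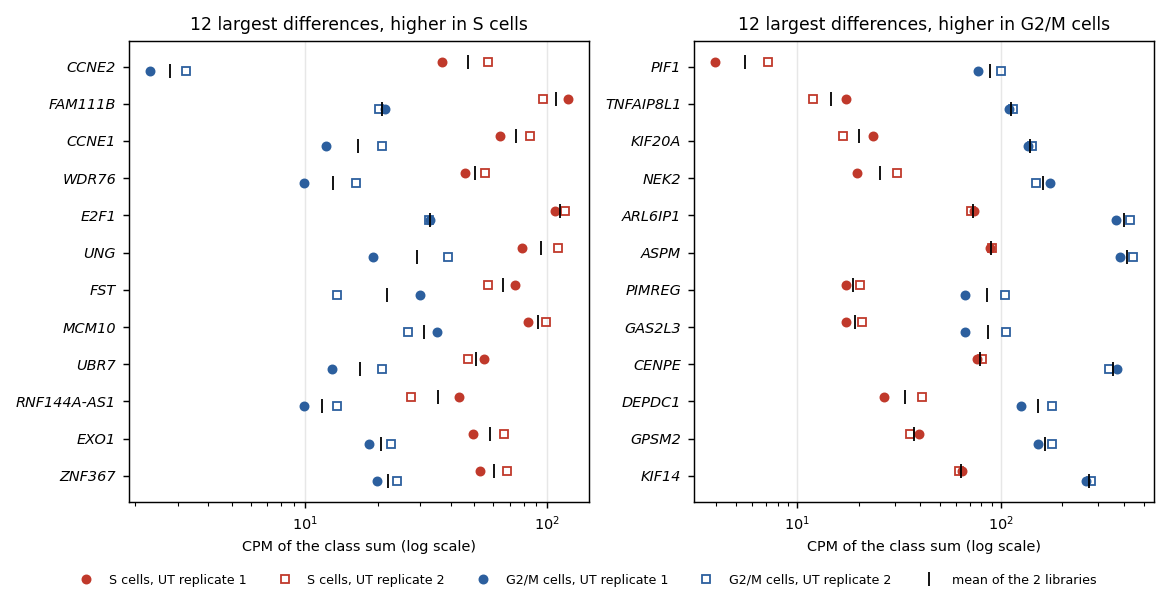
CPM (log axis) of the 12 genes with the largest difference in each direction, in S cells (red) and G2/M cells (blue) of UT replicate 1 (filled circles) and UT replicate 2 (open squares), with a tick at the mean of 2 libraries. Genes were chosen for the same direction in both libraries, and in every gene shown both S values lie on one side of both G2/M values. CCNE2 had 37.0 and 57.1 CPM in S cells against 2.30 and 3.25 in G2/M cells.

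Cyclin E genes and E2F1 were among the largest differences on the S side. CCNE2 (ENSG00000175305, chromosome 8 at 94879770 to 94896678 on GRCh38), a cyclin that activates CDK2 at the G1/S boundary, had 37.0 and 57.1 CPM in S cells against 2.30 and 3.25 CPM in G2/M cells, 16.5-fold higher (log2 fold change 4.05, SE 0.35, edgeR adjusted p = 3.94e-12). Its transcript was also seen in more cells. After thinning to 8000 UMIs it was detected in 23.0% and 35.4% of S cells (95% exact intervals 14.0 to 34.2 and 25.0 to 47.0), against 1.37% and 2.60% of G2/M cells (0.0347 to 7.40 and 0.316 to 9.07), intervals that cover counting error only. Without thinning the shares were 40.8% and 58.8% in S cells and 3.95% and 5.00% in G2/M cells.

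The related CCNE1 (ENSG00000105173, chromosome 19 at 29811991 to 29824312) had 63.7 and 85.0 CPM in S cells against 12.2 and 20.8 CPM in G2/M cells (log2 fold change 2.15, SE 0.22, adjusted p = 2.13e-10). E2F1 (ENSG00000101412, chromosome 20 at 33675477 to 33686385), the activator of this programme, had 108 and 119 CPM in S cells against 32.9 and 32.5 CPM in G2/M cells (log2 fold change 1.80, SE 0.16, adjusted p = 1.17e-11). The groups did not overlap for either gene. Of 28 G1/S regulators and E2F targets tested, 17 were higher in S cells and 1, the CDK inhibitor CDKN2C, was higher in G2/M cells; the list's median log2 fold change was 0.54, against 0.0071 over all genes. E2F2, the phosphatase CDC25A, which activates CDK2, and the cyclin CCND3 had log2 fold changes of 1.37, 1.30 and 1.15. Of the 17 calls on the S side 6 were kept without UT replicate 1, CCND3 not among them (adjusted p = 0.468), and 5 without UT replicate 2, E2F2 not among them (0.904). The call of CDKN2C was lost without either library (adjusted p = 0.0509 and 0.665 without UT replicates 1 and 2). With the library block left out, the adjusted p of CCNE1 was 0.0581.

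Several of the largest S-side differences were in genes with less familiar roles. FAM111B, a protease-like gene, had 122 and 95.7 CPM in S cells against 21.4 and 20.2 CPM in G2/M cells (log2 fold change 2.37, SE 0.19, adjusted p = 1.56e-13). WDR76, whose product binds chromatin, had 45.6 and 55.3 CPM in S cells against 9.95 and 16.3 CPM in G2/M cells (log2 fold change 1.92). FST, which encodes the activin antagonist follistatin, had 73.9 and 57.1 CPM in S cells against 29.9 and 13.7 CPM in G2/M cells. Neither cells held 52.2 and 53.7 CPM of FST, so the S level was not called above theirs (log2 fold change 0.29, adjusted p = 0.267), whereas the G2/M level was below it (log2 fold change -1.32, adjusted p = 5.97e-06). The zinc finger gene ZNF367 and DTL, a substrate receptor of the CRL4 ubiquitin ligase, were higher in S cells by 1.46 and 1.30 on the log2 scale. UBR7, a PHD-finger protein of the UBR family, PAQR4 and the antisense transcript RNF144A-AS1 were higher by 1.55, 1.32 and 1.52. The handling of strand in counting is not given in the sources used here, so reads of RNF144A-AS1 and RNF144A cannot be told apart. Without UT replicate 1 the adjusted p of UBR7, PAQR4 and RNF144A-AS1 was 0.0737, 0.434 and 0.415.

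Promoter windows from RefSeq (GRCh38.p14) were searched for the S-side genes with the largest differences, and 4 of those with a match are shown to give the letters in place. Of 14 such genes 10 had a window and 7 a match; CCNE1, FST and MCM10 had a window with none. Where a gene had more than 1 start, a start with a match was taken. Capitals mark the E2F-type letters searched (TTTCCCGC, TTTGGCGC, TTTCGCGC and TTTGCCGC, on either strand; none of them contains the CHR or CCAAT letters). Each line runs 5′ to 3′ along the gene.
E2F1, chr20:33686388-33686428, minus strand: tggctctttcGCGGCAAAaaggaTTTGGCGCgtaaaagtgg
ZNF367, chr9:96418374-96418415, minus strand: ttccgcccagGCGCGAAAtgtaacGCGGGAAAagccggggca
DTL, chr1:212035730-212035757, plus strand: gtgacgtcagTTTGGCGCggagtttggc
EXO1, chr1:241848198-241848225, plus strand: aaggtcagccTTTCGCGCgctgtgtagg
E2F1 and ZNF367 held 2 such matches each. Among all 35116 promoter windows of 300 bases in the table, 3.31% held at least 1, and among those of tested genes 5.02%. These shares count every window. The counts by gene above took a start with a match, among genes with the largest differences, and are not comparable with them. Only 281 of the 368 genes higher in S (76.4%) were matched in the table, so a share over that set is void and is not given. A match describes the letters and is not a measured binding site.

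Of 25 genes of origin licensing and the replicative helicase, 8 were higher in S cells and 2 were higher in G2/M cells (median log2 fold change 0.38). These were 32% and 8% of the list, against 3.12% and 3.68% of all genes. MCM10, which is needed to activate the helicase at origins, had 83.4 and 99.2 CPM in S cells against 35.2 and 26.7 CPM in G2/M cells (log2 fold change 1.59, SE 0.18, adjusted p = 2.96e-09). CDC45, part of the active helicase, had 72.4 and 117 CPM in S cells against 29.9 and 49.4 CPM in G2/M cells. The licensing factors CDT1 and ORC1 were higher by 1.1 and 1.09 on the log2 scale, and MCM3 by 1.14. Of the 8 calls 4 were kept without UT replicate 1, which lost ORC1 (adjusted p = 0.279), and 4 without UT replicate 2, which lost CDT1 (0.147) and ORC1 (0.0567). The 2 members higher in G2/M cells were DBF4, which activates the origin-firing kinase CDC7, and its relative DBF4B. DBF4 had 51.9 and 88.0 CPM in S cells against 90.3 and 129 CPM in G2/M cells (log2 fold change -0.64, adjusted p = 0.00136), and DBF4B had 12.6 and 8.32 CPM in S cells against 30.6 and 22.8 CPM in G2/M cells (log2 fold change -1.36, adjusted p = 0.00308). Both calls were lost without UT replicate 1 (adjusted p = 0.265 for DBF4 and 0.174 for DBF4B), without UT replicate 2 (0.154 and 0.207) and by DESeq2 (0.158 and 0.187).

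Of 33 genes for polymerases, clamp loading and lagging strand work, 12 were higher in S cells and none was higher in G2/M cells (median log2 fold change 0.40). The flap endonuclease FEN1 had 370 and 414 CPM in S cells against 178 and 196 CPM in G2/M cells (log2 fold change 1.07, SE 0.09, adjusted p = 3.25e-13), and the neither cells, at 175 and 183 CPM, stood beside the G2/M cells. CHAF1A, a histone chaperone that assembles nucleosomes behind the fork, and the clamp loader subunit RFC4 were higher by 1.31 and 1.00 on the log2 scale. Of the 12 calls 5 were kept without UT replicate 1 and 2 without UT replicate 2, which lost RFC4 (adjusted p = 0.063). Of 17 genes for nucleotide supply and histone mRNA binding, 7 were higher in S cells and none was higher in G2/M cells, and 3 and 4 of the 7 calls were kept without UT replicates 1 and 2. SLBP, which binds the stem-loop of histone mRNA, had 112 and 96.3 CPM in S cells against 40.6 and 44.9 CPM in G2/M cells (log2 fold change 1.26). The dUTPase gene DUT, which keeps uracil out of new DNA, was higher by 0.56 on the log2 scale. TK1, thymidine kinase, differed least among the S markers, with 925 and 572 CPM in S cells against 682 and 461 CPM in G2/M cells (log2 fold change 0.38, adjusted p = 3.5e-05; 0.288 without UT replicate 1), and was above neither cells in both classes.

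Of 52 genes for fork protection, the replication checkpoint and homologous recombination, 22 were higher in S cells and none was higher in G2/M cells (median log2 fold change 0.53). UNG, which removes uracil from DNA, had 78.6 and 111 CPM in S cells against 19.1 and 39.0 CPM in G2/M cells (log2 fold change 1.69, SE 0.18, adjusted p = 7.06e-10). EXO1, a nuclease of mismatch repair and end resection, had 49.5 and 66.6 CPM in S cells against 18.4 and 22.8 CPM in G2/M cells (log2 fold change 1.5). BRCA1, which promotes repair by homologous recombination, had 168 and 136 CPM in S cells against 78.1 and 87.2 CPM in G2/M cells. Claspin (CLSPN), the checkpoint mediator, was higher by 0.98 on the log2 scale and RMI2, of the BLM complex, by 1.43. The S and G2/M values of these genes did not overlap. Of the 22 calls 11 were kept without UT replicate 1, BRCA1 not among them (adjusted p = 0.0978), and 8 were kept without UT replicate 2. TP53BP1, which encodes the break marker followed in the study, had 82.6 and 71.9 CPM in S cells against 95.7 and 69.6 CPM in G2/M cells, a log2 fold change of -0.09 (SE 0.15) that was not called (adjusted p = 0.807).

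**Figure D2:**
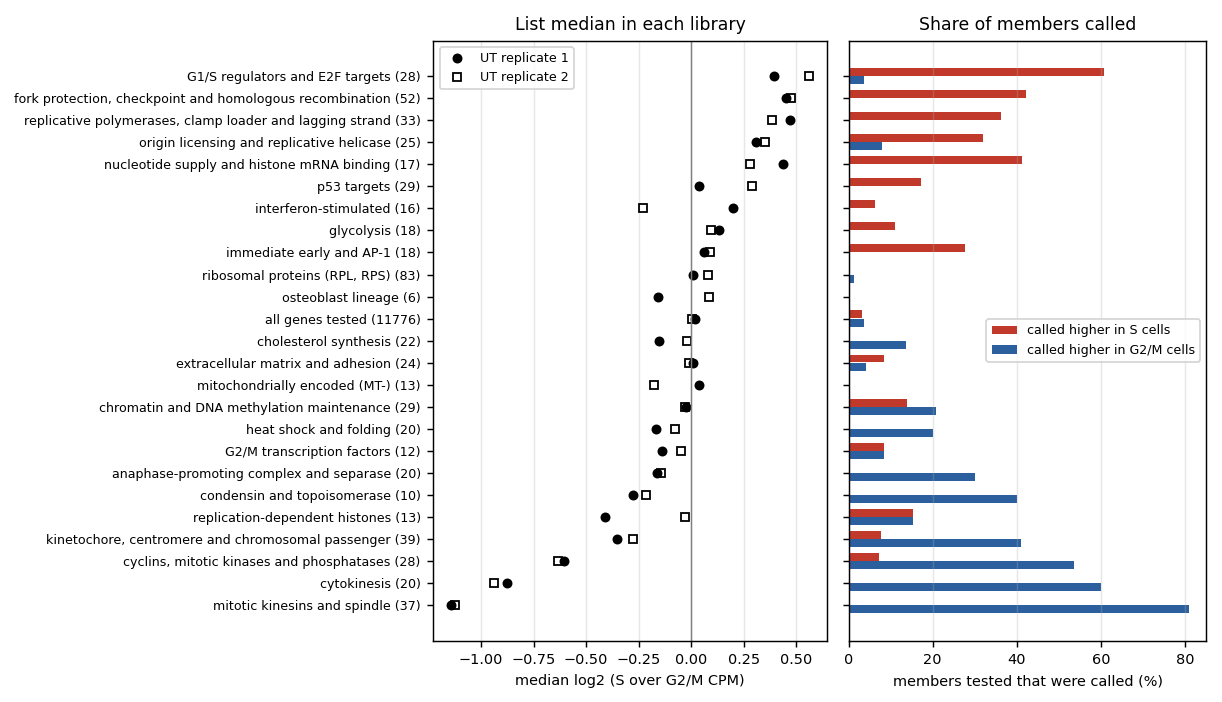
Left, the median log2 ratio of S over G2/M CPM in each gene list, in UT replicate 1 (filled) and UT replicate 2 (open); right, the share of tested members called higher in S cells (red) and in G2/M cells (blue), with the number tested in parentheses. Mitotic kinesins and spindle genes had 81.1% of members higher in G2/M cells, and G1/S regulators had 60.7% higher in S cells, against 3.12% and 3.68% of all genes in the S and G2/M directions.

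Among genes called on the G2/M side with a mean of 20 CPM or more, PIF1 differed most. PIF1 (ENSG00000140451, chromosome 15 at 64815632 to 64825668), a DNA helicase listed here with the spindle genes, had 3.93 and 7.13 CPM in S cells against 76.5 and 100 CPM in G2/M cells, 15.4-fold higher in G2/M cells (log2 fold change -3.94, SE 0.26, adjusted p = 6.55e-16). After thinning it was detected in 2.7% and 6.33% of S cells (95% exact intervals 0.329 to 9.42 and 2.09 to 14.2) and in 30.1% and 39.0% of G2/M cells (19.9 to 42.0 and 28.0 to 50.8). Without thinning the shares were 6.58% and 13.8% in S cells and 46.1% and 55.0% in G2/M cells.

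Of 37 mitotic kinesin and spindle genes, 30 were higher in G2/M cells and none was higher in S cells (median log2 fold change -1.15). KIF20A (ENSG00000112984, chromosome 5 at 138178719 to 138187723), the kinesin that carries PLK1 to the central spindle, had 23.6 and 16.6 CPM in S cells against 135 and 142 CPM in G2/M cells (log2 fold change -2.81, SE 0.18, adjusted p = 5.52e-16). The spindle pole gene ASPM had 88.1 and 90.3 CPM in S cells against 383 and 446 CPM in G2/M cells. CENPE, the kinesin that moves chromosomes to the metaphase plate, had 76.3 and 80.8 CPM in S cells against 370 and 340 CPM in G2/M cells. KIF14 had 64.5 and 62.4 CPM in S cells against 260 and 277 CPM in G2/M cells. Replicates of these genes differed far less than the classes did. Of the 30 calls 28 were kept without UT replicate 1 and 27 without UT replicate 2.

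Mitotic kinases and cyclins were more mixed. Of 28 tested, 15 were higher in G2/M cells and 2 were higher in S cells (median log2 fold change -0.67). NEK2 (ENSG00000117650, chromosome 1 at 211658657 to 211675630), a centrosome kinase, had 19.7 and 30.9 CPM in S cells against 174 and 149 CPM in G2/M cells (log2 fold change -2.62, SE 0.17, adjusted p = 2.02e-16). BORA, the cofactor with which Aurora A activates PLK1, had 3.15 and 8.91 CPM in S cells against 29.1 and 38.4 CPM in G2/M cells. Cyclin B2 (CCNB2) and the checkpoint kinase BUB1 differed by -1.62 and -1.73 on the log2 scale, and AURKB by -1.16. Cyclin A2 (CCNA2), which acts in both S phase and G2, had 123 and 174 CPM in S cells against 292 and 394 CPM in G2/M cells (log2 fold change -1.21, SE 0.09, adjusted p = 1.07e-13), and its S level was also above the 50.2 and 78.2 CPM of neither cells (log2 fold change 1.20, adjusted p = 5.03e-11). The 2 members higher in S cells were PKMYT1 and MASTL, at 0.81 and 0.78 on the log2 scale; the kinase PKMYT1 restrains CDK1, and the kinase MASTL blocks the phosphatase that opposes CDK1. Both lost their call without UT replicate 1 (adjusted p = 0.114 for PKMYT1 and 0.337 for MASTL), and without UT replicate 2 MASTL did (0.0692). Of the 15 calls on the G2/M side 13 were kept without either library.

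Of 39 kinetochore, centromere and chromosomal passenger genes, 16 were higher in G2/M cells and 3 were higher in S cells. Shugoshin 2 (SGO2), which protects centromeric cohesion, had 37.8 and 39.2 CPM in S cells against 120 and 172 CPM in G2/M cells (log2 fold change -1.94). The centromeric histone CENPA had 40.1 and 60.02 CPM in S cells against 121 and 204 CPM in G2/M cells. The 3 in the other direction were DSN1, CENPQ and CENPK, all structural parts of the kinetochore, and DSN1 had 95.2 and 92.1 CPM in S cells against 41.3 and 42.3 CPM in G2/M cells (log2 fold change 1.16, adjusted p = 5.91e-07). The calls of CENPQ and CENPK were lost without UT replicate 1 (adjusted p = 0.282 and 0.42) and without UT replicate 2 (0.358 and 0.221). Of the 16 calls on the G2/M side 12 and 9 were kept without UT replicates 1 and 2.

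Cytokinesis genes were higher in G2/M cells in 12 of 20 cases and never higher in S cells (median log2 fold change -1.01). ARL6IP1, an endoplasmic reticulum membrane protein placed in this list, had 73.9 and 71.3 CPM in S cells against 368 and 431 CPM in G2/M cells (log2 fold change -2.47, SE 0.11, adjusted p = 2.23e-21). PRC1, the bundler of the central spindle, had 182 and 144 CPM in S cells against 406 and 334 CPM in G2/M cells. Of 20 genes of the anaphase-promoting complex and separase pathway, 6 were higher in G2/M cells and none was higher in S cells; its activator CDC20 had 134 and 127 CPM in S cells against 339 and 440 CPM in G2/M cells. Of 10 condensin and topoisomerase genes 4 were higher in G2/M cells, among them NCAPD2 at -0.74 and SMC4 at -0.53 on the log2 scale. Of the 4 calls 3 were kept by DESeq2 and 3 in thinned cells. Without UT replicate 2 NCAPD2 kept its call and the others lost theirs, SMC4 at a log2 fold change of -0.48.

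Outside the lists, TNFAIP8L1, a relative of the TNFAIP8 lipid-binding family, had 17.3 and 11.9 CPM in S cells against 109 and 114 CPM in G2/M cells (log2 fold change -2.96, SE 0.20, adjusted p = 1.69e-15). GPSM2, which orients the spindle, had 39.3 and 35.7 CPM in S cells against 152 and 177 CPM in G2/M cells. The tastin gene TROAP, the mitotic regulator PIMREG, the cytoskeletal linker GAS2L3 and the dynein regulator NDE1 differed by -2.02, -2.21, -2.19 and -1.90. SOGA1 and the ubiquitin ligase gene NEURL1B differed by -1.88 and -2.01, and the call of NEURL1B was lost in thinned cells (adjusted p = 0.304). Of the genes called, 274 of 368 on the S side and 330 of 433 on the G2/M side were in none of the lists. Of all 11776 genes tested, 11260 were in none of the lists, a larger share than on either side. Of those 11260, 2.43% were called higher in S cells and 2.93% higher in G2/M cells, against 3.12% and 3.68% of all genes.

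The G2/M-side genes with the largest differences were searched for CHR and CCAAT letters in the same way (RefSeq, GRCh38.p14), and those that held both are shown. Of 16 such genes 14 had a window. Of these 5 held both motifs, 4 held CCAAT only (KIF20A, NEK2, ARL6IP1 and NDE1), 1 held the CHR only (NEURL1B) and 4 held neither (TNFAIP8L1, GAS2L3, CENPE and SOGA1). Capitals mark TTTGAA and CCAAT on either strand; neither motif contains the other.
DEPDC1, chr1:68497094-68497144, minus strand: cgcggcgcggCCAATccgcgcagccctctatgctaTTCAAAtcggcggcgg
GPSM2, chr1:108876907-108876966, plus strand: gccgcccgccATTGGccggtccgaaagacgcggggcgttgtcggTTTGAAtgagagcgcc
KIF14, chr1:200620735-200620783, minus strand: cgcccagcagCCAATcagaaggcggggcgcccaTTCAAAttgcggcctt
ASPM, chr1:197146680-197146813, minus strand: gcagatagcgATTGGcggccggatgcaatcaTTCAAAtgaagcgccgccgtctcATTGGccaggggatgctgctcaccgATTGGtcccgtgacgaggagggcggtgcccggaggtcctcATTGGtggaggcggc
PIF1, chr15:64825652-64825805, minus strand: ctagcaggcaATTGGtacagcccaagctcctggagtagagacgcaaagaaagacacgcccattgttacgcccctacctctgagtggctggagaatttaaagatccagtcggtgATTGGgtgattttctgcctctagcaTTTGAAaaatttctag
In each of these the CHR lay downstream of at least 1 CCAAT box. Of the 433 genes higher in G2/M, 364 (84.1%) were matched to 556 promoter starts. The CHR letters occurred in 27.2% of these starts, against 10.6% of the starts of all tested genes and 15.2% of all starts in the table. CCAAT occurred in 45.9%, against 34.8% and 34.6%. Both occurred in 17.6%, against 4.17% and 5.90%. These shares are descriptions and were not tested, since starts of 1 gene share sequence.

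Comparison with neither cells placed part of the differences. At an adjusted p under 0.05, 834 genes (7.08%) were higher and 530 (4.5%) lower in S than in neither cells, and 907 (7.70%) were higher and 681 (5.78%) lower in G2/M than in neither cells. Neither cells hold all remaining cycle positions, and their median count per cell was lower, as given above. Of the 368 genes higher in S than in G2/M cells, 194 were above neither cells in S cells and 92 were below neither cells in G2/M cells. In G2/M cells, 34 of the 368 were also above neither cells. Of the 433 genes higher in G2/M cells, 298 were above neither cells in G2/M cells and 65 were below neither cells in S cells. In S cells, 90 of the 433 were also above neither cells. DESeq2 called 277 and 68 genes in S against neither cells and 306 and 101 in G2/M against neither cells. Without UT replicate 1 the numbers were 236 and 115 for S cells and 307 and 141 for G2/M cells, and without UT replicate 2 they were 176 and 118 for S cells and 271 and 138 for G2/M cells.

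**Figure D3:**
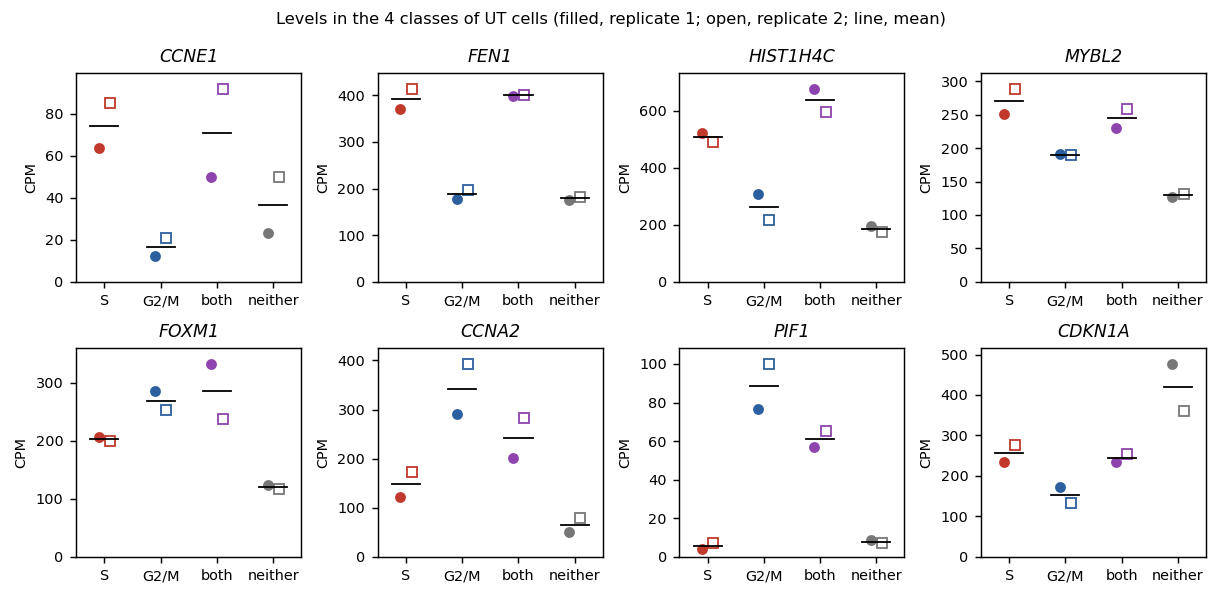
CPM of 8 genes in S, G2/M, both and neither cells of UT replicate 1 (filled) and UT replicate 2 (open), with a line at the mean of 2 libraries; axes start at 0. CDKN1A was highest in neither cells, at 478 and 361 CPM, while FEN1 in both cells (399 and 401 CPM) lay beside S cells.

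Of 12 G2/M transcription factor genes, 1 was higher in S cells and 1 was higher in G2/M cells. Each was 8.33% of the list, against 3.12% and 3.68% of all genes. B-MYB (MYBL2), which joins the MuvB complex in S phase, had 252 and 289 CPM in S cells against 191 and 189 CPM in G2/M cells (log2 fold change 0.51, SE 0.09, adjusted p = 0.000119). FOXM1 had 207 and 200 CPM in S cells against 285 and 252 CPM in G2/M cells (log2 fold change -0.39, SE 0.10, adjusted p = 0.00553). Both genes were above neither cells in each class. The MYBL2 call was lost without UT replicate 2 (adjusted p = 0.40), and the FOXM1 call without either library (0.426 and 0.186 without UT replicates 1 and 2) and by DESeq2 (0.256).

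Chromatin genes were split. Of 29 tested, 4 were higher in S cells and 6 were higher in G2/M cells (median log2 fold change -0.05). Of the 4 calls on the S side, 1 was kept by DESeq2 and 1 in thinned cells, in each case that of ATAD2. Of the 6 on the G2/M side, 4 were kept by DESeq2 and 4 in thinned cells. ATAD2, a bromodomain ATPase, had 368 and 439 CPM in S cells against 188 and 226 CPM in G2/M cells, and the cohesin subunit RAD21 had 406 and 488 CPM in S cells against 768 and 815 CPM in G2/M cells. Most replication-dependent histone mRNAs lack the poly(A) tail that this assay primes on, and 13 of 38 such genes passed the filter on low counts. HIST1H4C (histone H4) had 523 and 491 CPM in S cells against 309 and 216 CPM in G2/M cells (log2 fold change 0.97, SE 0.08, adjusted p = 1.64e-12), and the linker histone HIST1H1A had 88.1 and 70.1 CPM in S cells against 26.8 and 41.6 CPM in G2/M cells. HIST1H2AC and HIST1H4H went the other way, at -1.01 and -1.19 on the log2 scale. The median log2 fold change of the 13 histone genes was -0.33 (-0.41 and -0.030 in UT replicates 1 and 2). Near-identical coding sequences make values of single histone genes uncertain. Without UT replicate 1 the calls of HIST1H1A and HIST1H2AC were lost (adjusted p = 0.279 and 0.221), and that of HIST1H4H was lost without either library (0.279 and 0.433 without UT replicates 1 and 2).

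Of 29 p53 targets tested, 5 were higher in S cells (BTG2, PLK2, GADD45A, CDKN1A and AEN), 17.2% against 3.12% of all genes, and none was higher in G2/M cells (median log2 fold change 0.12). Of the 5 calls 2 were kept without UT replicate 1, 1 without UT replicate 2 and 2 by DESeq2; without UT replicate 1 the adjusted p of BTG2, PLK2 and AEN was 0.0864, 0.497 and 0.264. CDKN1A, which encodes the CDK inhibitor p21, had 234 and 276 CPM in S cells against 172 and 133 CPM in G2/M cells (log2 fold change 0.77, SE 0.14, adjusted p = 0.00223). It stood below neither cells in S cells (log2 fold change -0.68, adjusted p = 0.000461) and in G2/M cells (-1.46, adjusted p = 2.07e-07). The call was lost without UT replicate 2 (adjusted p = 0.23), when the top 20% of each score was used (0.379) and without the block (0.184). GADD45A, a stress sensor that binds PCNA and CDK1, had 83.4 and 96.3 CPM in S cells against 51.3 and 52.0 CPM in G2/M cells (log2 fold change 0.81; adjusted p = 0.00026, and 0.219 without UT replicate 2). MDM2, the ligase that degrades p53, had 40.9 and 96.9 CPM in S cells against 69.7 and 80.0 CPM in G2/M cells, and its values overlapped. The death receptor gene FAS had 12.6 and 20.2 CPM in S cells and 14.5 and 23.4 CPM in G2/M cells, and neither was called.

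Of 18 immediate early and AP-1 genes, 5 were higher in S cells, namely ANKRD1, CCN1, CCN2, JUN and JUND, and none was higher in G2/M cells (median log2 fold change 0.073). Of the 5 calls 2 were kept without UT replicate 1, which lost CCN2 (adjusted p = 0.19) and JUN (0.542), and 2 without UT replicate 2, which lost JUN (0.546) and JUND (0.797). CCN1, a matricellular protein and well-known target of YAP, had 240 and 250 CPM in S cells against 109 and 140 CPM in G2/M cells (log2 fold change 0.96, SE 0.11, adjusted p = 1.02e-08). Against neither cells, S cells did not differ in CCN1 past the threshold (log2 fold change 0.19, adjusted p = 0.21), and G2/M cells were lower (-0.78, adjusted p = 2.79e-07). ANKRD1 had 127 and 109 CPM in S cells against 65.1 and 44.2 CPM in G2/M cells (adjusted p = 3.9e-07; 0.146 and 0.334 without UT replicates 1 and 2). Thrombospondin 1 (THBS1) had 257 and 262 CPM in S cells against 133 and 135 CPM in G2/M cells (log2 fold change 0.95, SE 0.11, adjusted p = 1.99e-08). Among 24 matrix and adhesion genes, 2 were higher in S cells, THBS1 one of them, and COL6A3 was higher in G2/M cells (median log2 fold change -0.026). These were 8.33% and 4.17% of the list, against 3.12% and 3.68% of all genes. The G2/M share was near that of all genes. The call of COL6A3 was lost without UT replicate 2 (adjusted p = 0.76) and by DESeq2 (0.381).

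Of 20 heat shock and folding genes, 4 were higher in G2/M cells and none was higher in S cells (median log2 fold change -0.069). Of the 4 calls 2 were kept without UT replicate 1, 2 without UT replicate 2 and 1 by DESeq2. HSPA1A, the inducible HSP70, had 48.8 and 73.1 CPM in S cells against 152 and 215 CPM in G2/M cells (log2 fold change -1.58, SE 0.13, adjusted p = 1.06e-12). Its near-identical neighbour HSPA1B had 12.6 and 22 CPM in S cells against 23.7 and 50.1 CPM in G2/M cells, and reads of the pair may be split or lost between them. The HSPA1B call was lost without UT replicate 2 (adjusted p = 0.501), by DESeq2 (0.241) and in thinned cells (0.366). That of HSPH1, another of the 4, was lost without UT replicate 1 (adjusted p = 0.345) and by DESeq2 (0.13). Of 22 cholesterol synthesis genes 3 were higher in G2/M cells and none was higher in S cells (median log2 fold change -0.0016), and no call was kept without either UT library. Of 18 glycolysis genes, ENO2 and PGAM1 (11.1%, against 3.12% of all genes) were called higher in S cells, by 0.68 and 0.19 on the log2 scale. Both calls were lost without UT replicate 1 (adjusted p = 0.529 and 0.649), PGAM1 was also lost without UT replicate 2 (0.628), and both were lost by DESeq2 (0.108 and 0.426). Of 16 interferon-stimulated genes OAS3 alone was called, higher in S cells (log2 fold change 1.02, adjusted p = 0.000748), and the call was lost without UT replicate 1 (adjusted p = 0.0652), without UT replicate 2 (0.242), by DESeq2 (0.107) and in thinned cells (0.0778). IFIT1, of the same list, had 20.4 and 6.54 CPM in S cells against 21.4 and 47.5 CPM in G2/M cells and was not called (log2 fold change -1.47, adjusted p = 0.127), but was called higher in G2/M cells under 6 alternatives, thinned cells among them (log2 fold change -2.53, adjusted p = 3.96e-05). None of 13 mitochondrially encoded genes and 1 of 83 ribosomal protein genes was called.

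The IR libraries, which played no part in selecting the genes, were split by the same rule into 26 and 31 S cells and 26 and 31 G2/M cells. The limits are relative to each library: the median S score of S cells was 23.9 and 23.2 in IR against 32.1 and 34.3 in UT, and the median M score of G2/M cells was 27.5 and 28.4 in IR against 43.3 and 44.7 in UT. Of the 368 genes higher in S cells in UT, 202 (54.9%) were higher in S cells in both IR libraries, a direction shared by 28.1% of all genes. Of the 433 higher in G2/M cells in UT, 275 (63.5%) were higher in G2/M cells in both IR libraries, against 26.2% of all genes. The median log2 ratio of the S-side genes was 0.30 and 0.18 in IR and 0.71 and 0.67 in UT, where they had been selected. That of the G2/M-side genes was -0.44 and -0.32 in IR and -0.72 and -0.71 in UT. The part of the lower scores in the smaller medians was not tested. By list, the median log2 ratio of spindle genes was -1.003 and -0.86 in IR against -1.14 and -1.13 in UT, and that of cytokinesis genes -0.82 and -0.71 in IR against -0.87 and -0.94 in UT. G1/S regulators had 0.27 and 0.18 in IR against 0.39 and 0.56 in UT. Origin licensing genes had 0.32 and 0.091 in IR against 0.31 and 0.35 in UT. The 12 G2/M transcription factor genes had -0.30 and 0.14 in IR against -0.14 and -0.047 in UT, so their IR libraries fell on either side of 0.

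**Figure D4:**
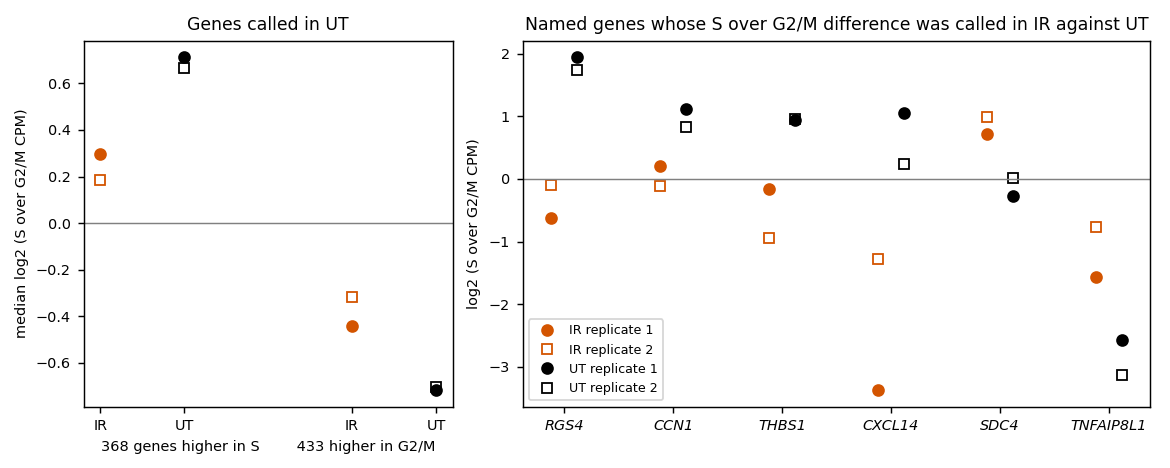
Left, median log2 ratio of S over G2/M CPM of the genes called in UT, in the IR (orange) and UT (black) libraries; right, the same ratio for the named genes with a called difference between IR and UT (filled, replicate 1; open, replicate 2). THBS1 lay at -0.17 and -0.94 in IR and at 0.94 and 0.95 in UT.

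The difference between the phases was tested directly between IR and UT. Of 12297 genes, 11 (0.0895%) had a called interaction, 4 with a higher and 7 with a lower S over G2/M ratio in IR, and 977 had an unadjusted p under 0.05. THBS1 had a log2 ratio of -0.17 and -0.94 in IR against 0.94 and 0.95 in UT (difference -1.63, SE 0.23, adjusted p = 0.000661). CCN1 had 0.20 and -0.11 in IR against 1.12 and 0.83 in UT (difference -0.93, SE 0.16, adjusted p = 0.00258). In CPM, THBS1 had 116.5 and 121.7 in S cells against 131 and 235 in G2/M cells of the IR libraries. Both genes stood higher in S cells in UT and at or below the G2/M level in at least 1 IR library. No gene was called without the block (409 with an unadjusted p under 0.05), 1 without UT replicate 1, 4 without UT replicate 2, 39 without IR replicate 1 and 8 without IR replicate 2, and both THBS1 (adjusted p = 0.123) and CCN1 (0.0826) lost their call without IR replicate 2. CCN1 also lost its call without UT replicate 1 (adjusted p = 0.22).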

How the data were processed

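Single U-2 OS cells were sequenced by SORT-seq in 2 UT and 2 IR libraries, grouped by the sample titles. The authors mapped reads to GRCh38 with STARsolo, and the submitters' processing notes also name Seurat 5; how strand was handled is not given in the sources used here. Deposited values are expected counts: 99.9% of them lay, within rounding to 3 significant digits, on the correction of observed UMIs for 4096 possible sequences. No value exceeded 138 per gene and cell, so abundant transcripts may be compressed.

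All deposited barcodes were used, and spike-ins were kept out of the totals. Expected counts were summed per class and library, rounded and tested with the robust quasi-likelihood test of edgeR 4.0.16 (R 4.3.3) after TMM scaling and filterByExpr, with p-values adjusted by Benjamini-Hochberg (threshold 0.05), on 8 UT sums with class and library as terms, which left 3 residual degrees of freedom. The 20 scoring genes were left out. The interaction was fitted on 16 sums of all 4 libraries (6 residual degrees of freedom). Both classes of a library share its culture and plate, so the library number pairs them: deviations from the class means correlated at 0.478 between sums of the same library, and the biological coefficient of variation was 0.0391 with the block and 0.167 without. Log2 ratios per library carry a prior count of 2. Cells were thinned to 8000 UMIs for shares of cells with a transcript.

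Named genes were genes of the study, label markers, the 12 largest changes in each direction (same sign in both libraries, mean of 20 CPM or more), the 8 largest outside the lists, up to 3 members by p of each of 23 lists and up to 5 by p of the interaction; other list members, including DBF4, DBF4B, BORA, DSN1, PKMYT1, MASTL, CENPQ, CENPK and CDKN2C, were named after their values were seen. A few list members are counted but not reported here by name. The members, lists and tests were chosen with earlier results of these data known. Positions are from GENCODE 44 by gene identifier. Alternatives were no block, S and G2/M sums only, RLE size factors, DESeq2 1.42.0, no filter, other score limits, thinned cells, equal weight per cell (limma 3.58.1), each library left out, all 4 libraries in 1 fit and, added after the data were seen, no genes near the count ceiling.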

Additional observations from a re-analysis of the deposited data

Results flagged for a closer look

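The S over G2/M difference of 6 named genes differed between IR and UT by the interaction test of edgeR. THBS1, a matricellular protein, had a difference of log2 ratios of -1.63 and CCN1 one of -0.93, with the values given in the report. CXCL14, a chemokine, had a log2 ratio of -3.37 and -1.27 in IR against 1.05 and 0.23 in UT (difference -2.53, SE 0.42, adjusted p = 0.0311). RGS4, a regulator of G protein signalling, had -0.63 and -0.097 in IR against 1.94 and 1.74 in UT (difference -2.28, SE 0.47, adjusted p = 0.0311). SDC4, the proteoglycan syndecan 4, had 0.71 and 0.99 in IR against -0.28 and 0.02 in UT (difference 0.98, SE 0.20, adjusted p = 0.0311). TNFAIP8L1 had -1.57 and -0.76 in IR against -2.58 and -3.13 in UT (difference 1.79, SE 0.38, adjusted p = 0.0323). Without UT replicate 1, of these only THBS1 kept its call; SDC4 and RGS4 lost theirs without either UT library, TNFAIP8L1 without either UT library and without IR replicate 2, and SDC4 also without IR replicate 2. CXCL14 kept its call without UT replicate 2 and without either IR library (adjusted p = 0.058 without UT replicate 1). What set these differences was not tested.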

How the results depend on the processing

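All 801 calls between S and G2/M cells kept their direction under no replicate block, RLE, DESeq2, no filter, top 40%, all 4 libraries and each library left out. In thinned cells 774 of the 777 still tested kept it. These fits largely reuse the same cells, so a kept direction was largely fixed in advance. Of the 801 calls, 101 were kept with no replicate block, 212 by DESeq2 and 309 in thinned cells. The library block, which pairs the classes, mattered most: with no replicate block 25 genes were higher in S and 76 in G2/M, 94 higher and 12 lower in S than in neither cells, 166 and 31 in G2/M against neither cells, and 0 in the interaction (0 higher, 0 lower). DESeq2 gave 77 and 135, 277 and 68, and 306 and 101. Thinned cells gave 161 and 215, 467 and 288, and 499 and 421. Equal weight per cell gave 199 and 248, 403 and 162, and 415 and 271. The top 20% of each score gave 353 genes lower in S than in neither cells, and the top 40% gave 1027 lower in G2/M than in neither cells. Other alternatives stayed within 1.5 times the main counts: RLE called 372 and 416, no genes near the count ceiling 363 and 409. With 1 library left out, counts ranged from 66 to 69 higher in S and 120 to 147 higher in G2/M, 176 to 236 and 115 to 118 for S against neither cells, and 271 to 307 and 138 to 141 for G2/M against neither cells. The interaction ranged from 0 to 23 higher and 1 to 16 lower. A lone remaining UT library was assumed to vary like the IR libraries. Log2 fold changes of uncalled genes changed sign: with 1 library left out TP53BP1 ranged from -0.226 to 0.0437, MDM2 from -0.781 to 0.272, SNAP25 from -0.219 to 0.752 and SDC4 from -0.296 to 0.0195, with the top 20% MDM2 was 0.0743 and SNAP25 -0.106, and in thinned cells FAS was 0.257. Of 100 named genes, 51 had the same outcome under every alternative run. The cause of these shifts was not tested. The S minus G2/M difference in median genes detected was 138 ± 266 and -0.178 ± 0.258 percentage points in mitochondrial share (SD, n = 2 libraries).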
